A study of Mus musculus with 13 samples.

Results

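Forkhead genes of vascular cells were followed here: Foxo1, Foxo3, Foxf1, Foxc1, Foxc2 and Foxp1. The 6 genes were chosen by symbol and are 6 of the 44 forkhead genes listed in each set of files, and 6 of 24984 genes listed for tumor endothelial cells (ECs) and of 24421 listed for sprout ECs. RNA-Seq was available from 13 mouse libraries of ECs in a design around Apelin, the peptide ligand of the Apelin receptor, with an Apln knockout in the tumor set and an Apln gene trap in the sprout set. Tumor ECs were CD31+/CD105+ cells, negative for DAPI and CD45, sorted at day 25 from orthotopic mammary tumors of E0771 cells, a C57BL/6 mammary carcinoma line, with 100 cells per library. Sprout ECs were CD31+ cells sorted from embryoid bodies that had been moved to gel on day 8 and given VEGF at 30 ng/ml.

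The KO group (n = 3 libraries) came from Apln-/- mice bearing tumors of E0771 cells with an shRNA against Apln, and the WT group (n = 6) came from wild-type C57BL/6J mice bearing tumors of cells with an shRNA against Renilla luciferase. The host deletion was present in every host cell from the germline on. Deletion in the host and shRNA knockdown in the tumor cells were combined in the KO group. The sprout libraries were made from embryonic stem cells of haploid origin that carry a Tol2 gene trap between exons 1 and 2 of Apln. Those labelled STOP (n = 2) hold the trap in the sense orientation and received DMSO, and those labelled GO (n = 2) are sister cells in which a retroviral mCherry-Cre vector had turned the trap to antisense and received Apelin at 1000 nM. Only 1 trap is described for both. Genotype and added Apelin differ together, so their parts cannot be told apart. The labels do not say whether libraries of a group came from separate animals or cultures, and the p-values measure the spread between these libraries.

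Total counts per library ranged from 4661044 to 14455093 in tumor ECs and from 12327030 to 16804071 in sprout ECs. Values are given as counts or as CPM (counts scaled to the normalized library size). Apln itself lay between 2.44 and 12.1 CPM in the KO libraries and between 416 and 1033 CPM in the WT libraries. In the libraries labelled STOP it was at 66.1 and 80.2 CPM, against 58.2 and 65.9 CPM in those labelled GO, so Apln counts were not lower under the STOP label, and the groups are called here by their labels. Counts per gene do not separate reads before and after the trap. Pecam1, which encodes CD31, and Eng, which encodes CD105, stood at or above the 97.7th percentile of the genes with a count in every tumor library. In sprout libraries the lowest percentile was 85.5 for Pecam1 and 75.0 for Eng. In tumor ECs 8 macrophage markers summed to 6.40 to 954 CPM, 8 T and NK cell markers to 9.92 to 177 CPM, 6 epithelial markers to 7.67 to 66.8 CPM, 6 erythroid markers to 0.0704 to 13.9 CPM and 8 pluripotent markers to 0 to 6.35 CPM, with KO and WT overlapping in each.

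Forkhead factors are transcription factors that share a winged-helix DNA-binding domain and bind sequences built around a TAAACA core. FOXO1 and FOXO3 act downstream of growth factor signaling: Akt phosphorylates them, 14-3-3 proteins hold them in the cytoplasm, and in quiescent ECs they enter the nucleus and restrain growth and metabolism. FOXC1 and FOXC2 act in arterial specification and lymphatic valve formation, often on composite elements shared with ETS factors. FOXF1 is needed for vessel formation in extraembryonic mesoderm and lung, and FOXP1 is a repressor of broad expression that is also found in ECs.

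On GRCm38 (GENCODE M21; the authors' files use mm10, the same assembly), Foxo1 lies on the plus strand at chr3:52268336-52353221 and Foxo3 on the minus strand at chr10:42181841-42276755. Foxf1 (chr8:121084386-121088144) and Foxc2 (chr8:121116171-121118895) lie on the plus strand of the same chromosome with 28.0 kb between them, and Foxc2 has 1 exon. Foxc1, also with 1 exon, is at chr13:31806633-31812476 on the plus strand, and Foxp1 is at chr6:98925338-99522721 on the minus strand. The reads cover whole gene models, so exons and untranslated regions were not told apart.

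Promoter sequences are shown for Foxo1 and Foxo3, the paralogs that lay in opposite directions between the sprout groups, and for Foxp1, the steadiest of the 6 genes. Each is the 250 bases before a RefSeq start (GRCm38.p6), written 5′ to 3′ on the gene's strand. Of the 6 genes, 4 had an entry, with 6 starts among them. In Foxo1 (chr3:52268087-52268336) and Foxo3 (chr10:42276696-42276945) the capitals mark the GC box GGGCGG on either strand.
Foxo1: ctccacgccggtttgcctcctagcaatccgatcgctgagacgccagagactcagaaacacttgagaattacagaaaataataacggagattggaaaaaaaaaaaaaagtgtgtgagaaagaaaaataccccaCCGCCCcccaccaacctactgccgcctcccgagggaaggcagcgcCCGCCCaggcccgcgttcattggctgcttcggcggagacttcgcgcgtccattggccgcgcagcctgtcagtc
Foxo3: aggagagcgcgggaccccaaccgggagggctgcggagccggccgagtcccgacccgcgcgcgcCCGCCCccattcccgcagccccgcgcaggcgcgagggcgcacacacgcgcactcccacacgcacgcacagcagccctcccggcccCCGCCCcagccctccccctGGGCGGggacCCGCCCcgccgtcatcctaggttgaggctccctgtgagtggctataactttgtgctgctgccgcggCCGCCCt
The 3 starts of Foxp1 (chr6:99520994-99521243, chr6:99266516-99266765 and chr6:99028299-99028548, all on the minus strand) are shown with the forkhead core TAAACA, on either strand, in capitals.
Foxp1 start 1: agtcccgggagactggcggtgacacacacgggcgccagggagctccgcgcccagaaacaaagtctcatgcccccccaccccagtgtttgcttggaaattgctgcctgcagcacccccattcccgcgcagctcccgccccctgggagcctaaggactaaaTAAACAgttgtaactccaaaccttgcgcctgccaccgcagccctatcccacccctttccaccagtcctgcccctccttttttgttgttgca
Foxp1 start 2: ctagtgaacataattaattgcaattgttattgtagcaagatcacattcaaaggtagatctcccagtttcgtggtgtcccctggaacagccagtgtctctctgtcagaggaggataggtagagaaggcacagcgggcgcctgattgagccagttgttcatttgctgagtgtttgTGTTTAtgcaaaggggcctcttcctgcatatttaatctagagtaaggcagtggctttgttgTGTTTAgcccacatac
Foxp1 start 3: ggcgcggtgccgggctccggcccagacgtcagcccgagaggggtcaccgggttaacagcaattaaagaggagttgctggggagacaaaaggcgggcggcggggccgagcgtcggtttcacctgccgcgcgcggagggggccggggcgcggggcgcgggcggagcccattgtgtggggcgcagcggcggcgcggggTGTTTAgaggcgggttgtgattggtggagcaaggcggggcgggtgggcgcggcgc

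The forkhead core TAAACA was found in all 3 Foxp1 windows and in none of the windows of Foxo1, Foxo3 and Foxc1, where 12.0% of all 32851 promoter windows held it on either strand. GGGCGG was found 5 times before Foxo3, 2 times before Foxo1 and 1 time before Foxc1, and before the Foxp1 starts 1, 0 and 3 times; 32.7% of all windows held it at least once. The ETS core CCGGAAG, held by 6.91% of all windows, was in none of the 6, and none of these motifs contains another. GC content was 76.4% before Foxo3, 70.8% before Foxc1, 56% before Foxo1 and 60.8%, 45.2% and 74% before the 3 Foxp1 starts, against a median of 52.4% over all windows. A match describes these letters and shows no binding.

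To compare levels between genes, counts were divided by transcript length. For sprout ECs this is the deposited TPM, a share of all transcripts after correction for length, and for tumor ECs it is counts per kilobase of the same RSEM lengths, brought to the same total as TPM. On this scale Foxo1 and Foxp1 led in tumor ECs, at 68.6 ± 25.9 and 55.3 ± 11.1 TPM in KO (SD, n = 3) and 62.1 ± 31.4 and 50.5 ± 10.5 TPM in WT (SD, n = 6). Their ranges overlapped each other in both groups and lay above those of all the other 4 genes. In WT this was narrow, with a lowest Foxo1 value of 16.17 TPM and a highest Foxf1 value of 16.13 TPM. That gap rests on the listed lengths, which are 64.1% of the longest GENCODE transcript for Foxo1 and 100.4% for Foxf1. Foxf1 came next with 10.4 ± 7.47 TPM in KO and 9.62 ± 5.01 TPM in WT, and it overlapped Foxc2, which had 9.42 ± 9.23 and 4.25 ± 5.70 TPM. Foxc1 (7.02 ± 6.59 TPM in KO, 2.26 ± 1.12 TPM in WT) overlapped Foxc2 too. Foxo3 was last in KO at 1.03 ± 0.430 TPM, below every Foxc1 value, and reached 2.31 ± 3.04 TPM in WT, where it overlapped Foxc1.

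In sprout ECs the leading genes were Foxo1, Foxp1 and Foxo3. In libraries labelled GO, Foxo1 was at 25.9 ± 0.0212 TPM, Foxp1 at 22.1 ± 0.601 TPM and Foxo3 at 19.4 ± 2.82 TPM (SD, n = 2). In those labelled STOP the order was Foxo3 at 21.9 ± 0.594 TPM, Foxp1 at 17.5 ± 0.219 TPM and Foxo1 at 16.7 ± 0.856 TPM. Neighbors in these orders did not overlap, but the orders rest on the listed lengths: with the longest GENCODE transcripts, tried after the values were seen, Foxp1 was above Foxo1 in all 4 libraries. Foxc2 came next in both groups, at 12.9 ± 3.28 TPM under GO and 2.31 ± 0.339 TPM under STOP. Its place below Foxo3 under GO also rests on the listed lengths, and was not checked with the longest transcripts. The listed length is 99.96% of the longest transcript for Foxc2 and 42.2% for Foxo3. Foxf1 (3.17 ± 1.96 and 0.86 ± 0.552 TPM) and Foxc1 (2.94 ± 1.24 and 1.26 ± 0.269 TPM) were lowest and overlapped each other.

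**Figure D1:**
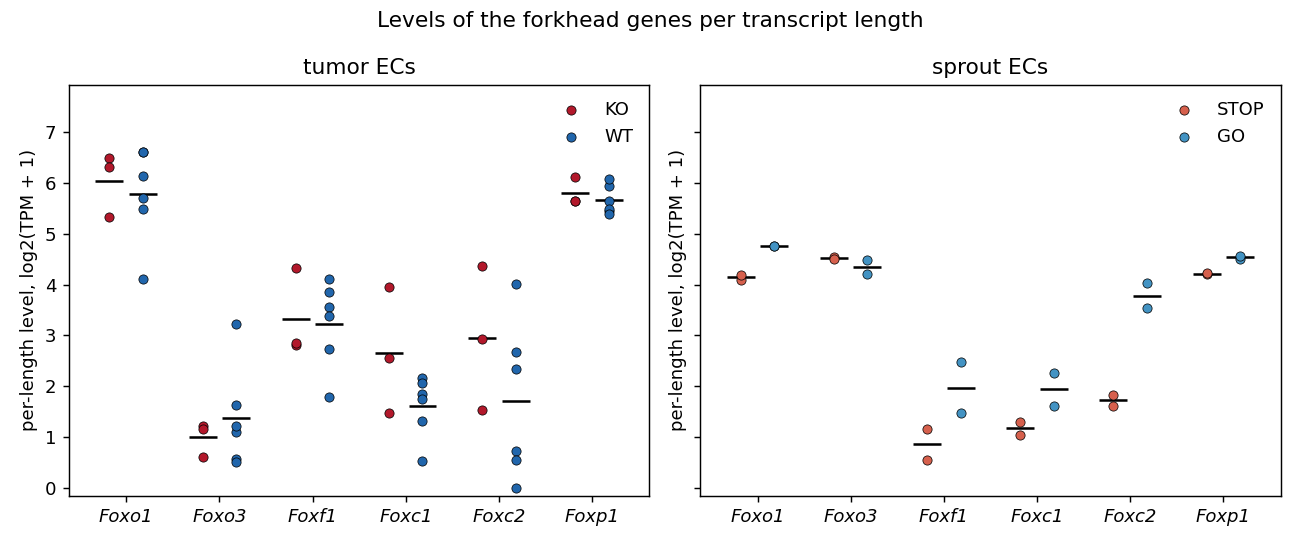
Level of each forkhead gene per transcript length, as log2(TPM + 1), with 1 point per library and a bar at the group mean; tumor ECs (KO, WT) are on the left and sprout ECs (STOP, GO) on the right. On the listed RSEM lengths, Foxo1 and Foxp1 stand above the other genes in tumor ECs, where Foxo3 is near the bottom. On the same lengths Foxo3 is among the leading genes in sprout ECs.

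Foxo3 stood far lower among the genes of tumor ECs than among those of sprout ECs. Its percentile among genes with a count ranged from 12.2 to 41.3 over the 9 tumor libraries and from 61.2 to 68.6 over the 4 sprout libraries. Foxp1 ranged from 75.1 to 82.3 and from 63.4 to 66.5. The ratio of Foxo1 to Foxo3 per length was 29.8, 165 and 63.2 in KO replicates 1 to 3 and had a median of 78.1 in WT (lowest 1.93, highest 166). It was 0.719 and 0.803 in libraries labelled STOP and 1.21 and 1.50 in those labelled GO, so on the listed lengths Foxo3 exceeded Foxo1 in the STOP libraries alone. That side depends on the lengths: with the longest GENCODE transcripts in their place, a check added after the values were seen, the ratio was 1.04 and 1.17 under STOP and 1.72 and 2.14 under GO, still lower under STOP. The sets differ in tissue, library chemistry and counting, which cannot be told apart here. The length listed for Foxo3 is 2889 bases, 42.2% of the longest GENCODE transcript (6848 bases), against 64.1% for Foxo1 and 93.3% for Foxp1, and the part of gene models in the low tumor counts was not tested.

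**Figure D2:**
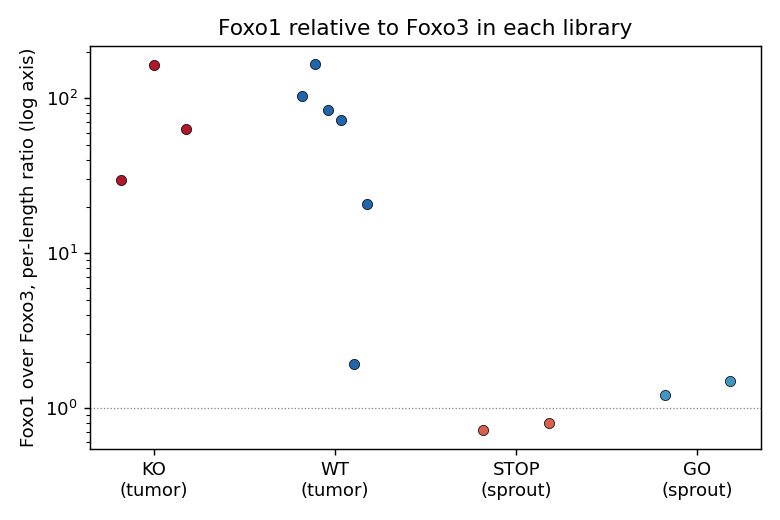
Ratio of Foxo1 to Foxo3 per transcript length in each library, on a log axis; the dotted line marks a ratio of 1 and points are libraries of each group. On the listed RSEM lengths the libraries labelled STOP are the only ones below 1 (0.719 and 0.803; 1.04 and 1.17 with the longest GENCODE transcripts), and the lowest WT library (1.93) lies far from the other WT libraries.

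None of the 6 genes passed the thresholds between KO and WT tumor ECs, where the standard errors of the log2 fold changes ran from 0.29 to 1.37. In the fit over 13073 genes (edgeR quasi-likelihood test, adjusted p under 0.05 and an absolute log2 fold change over 1), 0 of 6 were called and 0 had an unadjusted p under 0.05, where 0.00765% of all tested genes were called, Apln alone. DESeq2 called 0 of 6 as well. The KO and WT libraries overlapped for all 6, while 2.33% of tested genes did not overlap.

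Foxc1 was the gene with the smallest p. It had 9.52, 28.8 and 3.90 CPM in KO replicates 1 to 3, and in WT a lowest value of 0.990, a median of 4.49 and a highest of 7.12 CPM. KO replicates 1 and 2 lay above every WT library and replicate 3 lay among them. The log2 fold change was 1.64 (SE 0.86, edgeR adjusted p = 1.00, unadjusted p = 0.0753), and the exact permutation test of log2(CPM + 1) gave p = 0.119 (two-sided, 0.714 after Benjamini-Hochberg adjustment over the 6 genes, with 0.0119 the smallest p possible over 84 splits). Without KO replicate 2, the deepest library, the fitted change was 0.57, and without KO replicate 3 it was 2.10 (edgeR adjusted p = 1.00, unadjusted p = 0.0341).

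Foxc2 had 2.55, 26.9 and 9.87 CPM in KO and from 0 to 21.2 CPM in WT, with a median of 2.97 CPM. In WT replicate 2 no read was counted, which at this depth allows up to 0.293 CPM (3 counts, covering counting error only). The log2 fold change was 1.14 (SE 1.25, edgeR adjusted p = 1.00; exact permutation p = 0.286). Without KO replicate 2 it was 0.06, without WT replicate 1 it was 2.16, and with the replicate block it was 3.40.

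Foxf1 had 7.14, 23.1 and 8.16 CPM in KO and 3.30 to 18.3 CPM in WT, with a median of 12.6 CPM. KO replicate 2 was the highest of all 9 libraries and the other KO libraries lay inside the WT range. The log2 fold change was 0.14 (SE 0.73) and turned to -0.60 without KO replicate 2 and to -0.05 without WT replicate 5. KO replicate 2 was also the highest of the 9 for Foxc1 and Foxc2. Its summed level of 5 lymphatic endothelial markers was 2104 CPM, against 1030 and 246 CPM in the other KO libraries and 94.3 to 2335 CPM in WT, with counts for all 5 markers in tumor ECs. WT replicate 3 had the highest lymphatic sum of the 9, and there Foxc2 was at 0.786 CPM, Foxf1 at 6.09 CPM and Foxc1 at 4.62 CPM. The 10 mural and fibroblast markers summed to 72.1 to 219 CPM in KO and 56.6 to 4173 CPM in WT, the highest in WT replicate 2, where Foxc1 was at 6.74 CPM, Foxf1 at 12.7 CPM and Foxc2 at 0. The part of lymphatic or mural cells in these values was not tested.

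Of the FOXO genes, Foxo1 had 107, 246 and 237 CPM in KO and 50.2 to 249 CPM in WT, with a median of 167 CPM. Foxo3 had 1.87, 0.774 and 1.95 CPM in KO and 0.586 to 13.5 CPM in WT, with a median of 1.63 CPM. WT replicate 5 was the lowest library for Foxo1 and Foxf1 and the highest for Foxo3 and Foxp1, and it had the lowest summed level of 12 endothelial markers (8392 CPM, against up to 14152 CPM). WT replicate 3 was almost as low in these markers (8467 CPM) and had Foxo1 at 237 CPM and Foxo3 at 1.47 CPM. The log2 fold change was 0.23 (SE 0.42) for Foxo1 and -1.22 (SE 1.37) for Foxo3, both with an edgeR adjusted p of 1.00. Without WT replicate 5 these fitted changes were 0.04 and -0.06.

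Foxp1 varied least. It had 161, 228 and 179 CPM in KO and 137 to 249 CPM in WT, a 1.81-fold range over the 9 tumor libraries. Foxc1 spanned 29.1-fold and Foxo3 23.1-fold, and Foxc2 ran from 0 to 26.9 CPM. The log2 fold change of Foxp1 was 0.14 (SE 0.29, edgeR adjusted p = 1.00).

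**Figure D3:**
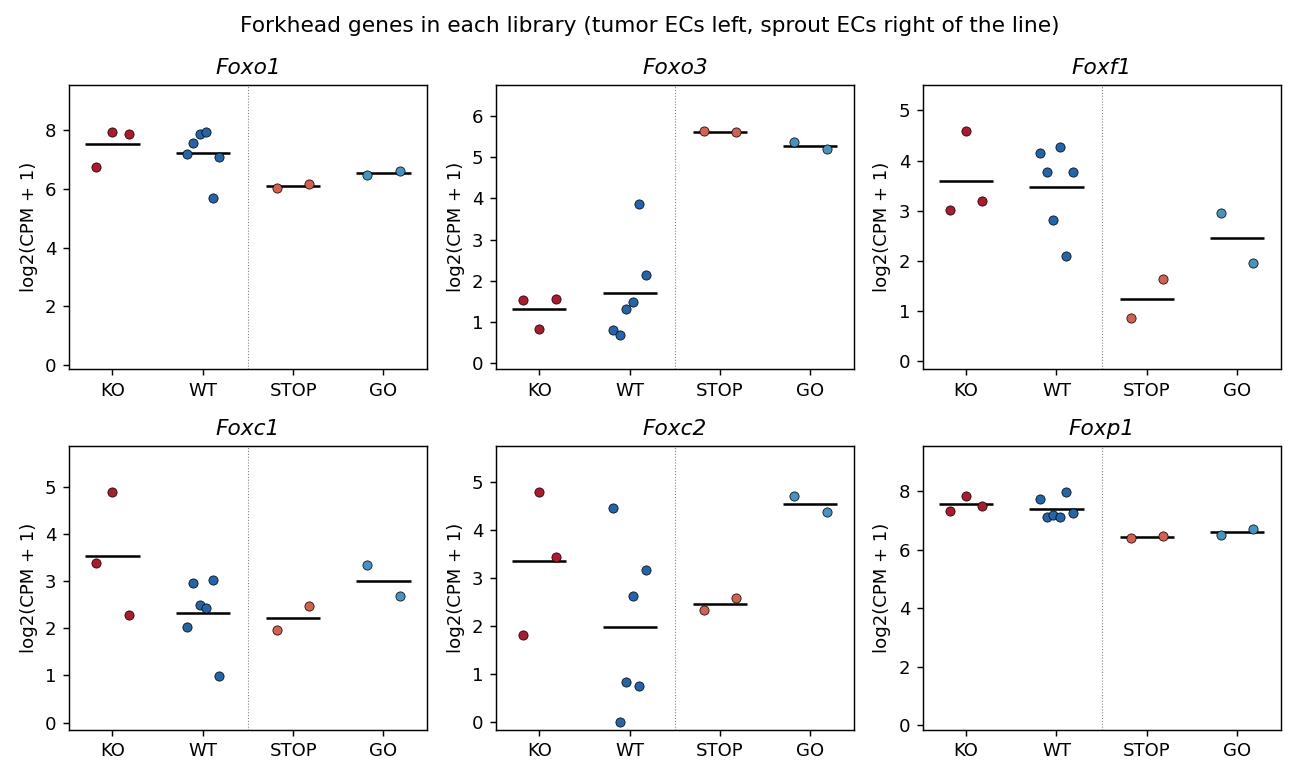
Level of each forkhead gene as log2(CPM + 1), with 1 point per library and a bar at the group mean; KO and WT are tumor ECs and STOP and GO sprout ECs, on either side of the dotted line. KO and WT overlap in all 6 panels, while the STOP points lie below the GO points in 5 panels and above them for Foxo3. Over all tested genes, 2.33% did not overlap in tumor ECs and 29.6% had STOP below GO in sprout ECs.

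As a description of the 9 tumor libraries, the genes whose log2(CPM + 1) followed each forkhead gene most closely among 13073 were listed by Pearson correlation. They were Atf6b (r = 0.98), Ubqln2 (0.97) and Rfwd3 (0.95) for Foxo1, and Rrp1b (0.96), Ncl (0.96) and Denr (0.96) for Foxo3. For Foxf1 they were Taf10 (0.98), Ppib (0.96) and Ccdc126 (0.95), and for Foxp1 Gsdmd (0.93), Marf1 (0.92) and Mpp7 (0.91). Tsc22d2 (0.93), Retreg1 (0.93) and Fxyd6 (0.92) came first for Foxc1, and Tmc8 (0.93), Trafd1 (0.93) and Efr3a (0.93) for Foxc2. The points share library depth and scaling. None of the 6 genes was among the 3 closest of another, and the pair with the lowest correlation was Foxo1 with Foxo3 (-0.79), a value that rests on WT replicate 5: over the other 8 libraries r was -0.25. Without that library, left out after the values were seen, the 3 genes named for Foxo3 were at 0.83 to 0.84 and those named for Foxo1 at 0.85 to 0.94, with no new ranking. Foxc2 with Foxp1 moved from 0.39 to 0.83.

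In sprout ECs, Foxc2 fell with the STOP label. Its reads were 60 and 62 in number (4.06 and 5.05 CPM) under STOP and 428 and 247 (25.3 and 19.9 CPM) under GO, with no overlap. The log2 fold change was -2.31 (SE 0.26, edgeR adjusted p = 0.00572), 4.97-fold lower. It was the 1 gene of 6 called, where 3.88% of 14557 tested genes were called in either direction and 3.03% as lower, shares that move with the library left out. With the replicate number as a block the estimate was -2.31 and the adjusted p 0.0548, which ends the call. Leaving out any 1 library kept it, with log2 fold changes from -2.49 to -2.13.

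Foxf1 and Foxc1 were lower in the same direction but did not pass the threshold. Foxf1 had 12 and 26 counts (0.813 and 2.12 CPM) under STOP and 114 and 36 counts (6.73 and 2.91 CPM) under GO. The groups did not overlap, and the log2 fold change was -1.74 (SE 0.60, edgeR adjusted p = 0.127). Foxc1 had 2.91 and 4.56 CPM against 9.14 and 5.41 CPM, with a log2 fold change of -0.97 (SE 0.40, edgeR adjusted p = 0.168). Without GO replicate 1 these changes were -1.004 and -0.54.

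Foxo1 and Foxo3 lay in opposite directions. Foxo1 had 64.3 and 70.8 CPM under STOP and 88.2 and 97.1 CPM under GO, with a log2 fold change of -0.46 (SE 0.14, edgeR adjusted p = 0.0937). Foxo3 had 48.8 and 47.8 CPM under STOP and 40.4 and 35.9 CPM under GO, with a log2 fold change of 0.34 (SE 0.15, edgeR adjusted p = 0.193). Neither passed the threshold. Neither pair of groups overlapped. Both STOP values lay below both GO values for 29.6% of all tested genes, and the share with STOP above GO was not counted. Foxp1 had 84.4 and 87.0 CPM against 89.4 and 103 CPM, with a log2 fold change of -0.17 (SE 0.14, edgeR adjusted p = 0.471).

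Over the 6 genes, 5 had both STOP values below both GO values, as 29.6% of all tested genes did, and 4 were lower at an unadjusted p under 0.05, as 14.3% of all tested genes were. The median log2 fold change of the 6 was -0.71, beside 0.01 over all tested genes. The RSEM expected counts, which share out reads aligned to several places, gave -2.33 for Foxc2 with an edgeR adjusted p of 0.0117.

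Endothelial markers moved with these values. All 12 were lower under STOP at an unadjusted p under 0.05 and 11 of 12 were called, and their summed level was 646 and 869 CPM under STOP and 2580 and 2470 CPM under GO. All 8 pluripotent markers were higher at that p, with 1 called (Dppa5a), and summed to 5553 and 5419 CPM under STOP and 2077 and 3497 CPM under GO, so pluripotent transcripts were present in every sorted library. Of 10 mural and fibroblast markers 0 were called. Their sums were 423 and 2247 CPM in STOP replicates 1 and 2 and 2557 and 564 CPM in GO replicates 1 and 2. Foxf1, Foxc1 and Foxc2 had the same order of libraries within each group, and Foxo1, Foxo3 and Foxp1 did not. Of 6 epithelial markers 0 were called and 2, Epcam and Cdh1, were higher at an unadjusted p under 0.05, and their sums of 758 to 968 CPM under STOP lay above those of 580 to 637 CPM under GO. Of 5 lymphatic markers tested 1 was called lower, as was 1 of 7 early mesoderm markers (5 below 0 and 2 above) and 1 of 5 erythroid markers, and their summed levels were 117 and 123, 112 and 160, and 12.7 and 43.1 CPM in turn under STOP against 243 and 278, 190 and 245, and 141 and 226 CPM under GO. The part of these cells in the forkhead values was not tested. In bulk samples, fewer cells of a type and less RNA per cell cannot be told apart.

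Divided by the summed endothelial markers, a ratio chosen after the values were seen and given with no test, Foxc2 was still below GO in both STOP libraries. It had 6.29 and 5.81 CPM per 1000 CPM of marker under STOP against 9.79 and 8.07 under GO, a ratio of means of 0.678. Foxf1 overlapped on this scale (1.26 and 2.44 against 2.61 and 1.18). Foxo1, Foxo3, Foxc1 and Foxp1 were above GO, with ratios of means of 2.46, 4.32, 1.70 and 3.02. Foxo1, Foxc1 and Foxp1 thus lay in opposite directions on the 2 scales.

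**Figure D4:**
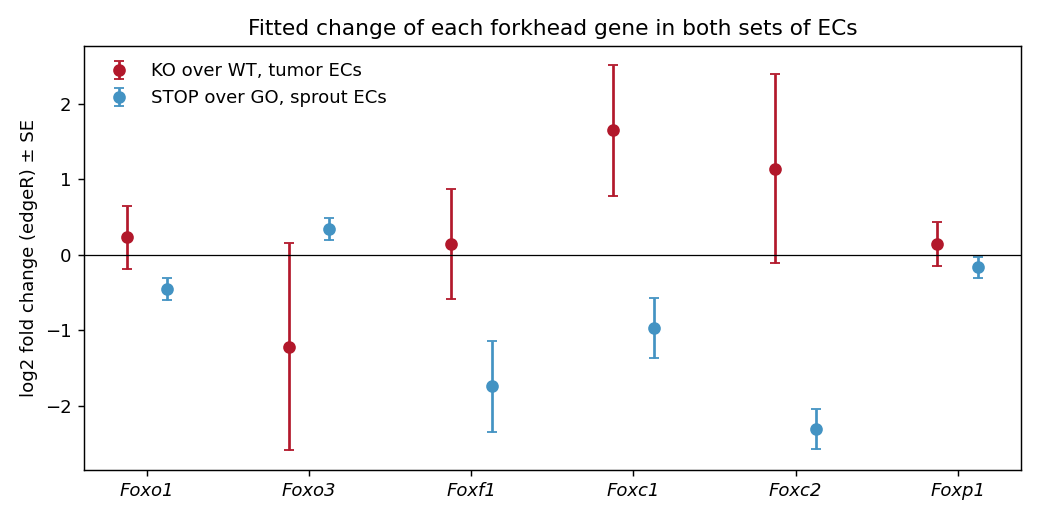
Fitted log2 fold change of each forkhead gene with its standard error, for KO over WT in tumor ECs (red) and STOP over GO in sprout ECs (blue); the line marks no change. Foxc2 in sprout ECs (-2.31) is the only value that passed the thresholds, and the tumor intervals are wider.

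For each gene the difference between the change in tumor ECs and that in sprout ECs was tested in 1 fit over all 13 libraries. In edgeR 0 of 6 were called and 0 had an unadjusted p under 0.05, where 0.00634% of 15762 genes were called, and DESeq2 called 0 of 6. Foxc2 had the largest difference, 3.41 on the log2 scale (SE 2.13, unadjusted p = 0.127, adjusted p = 1.00), and Foxc1 followed with 2.56 (SE 1.52, unadjusted p = 0.110, adjusted p = 1.00). At these errors the signs in the tumor and sprout sets were not shown to differ.

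Foxf1 and Foxc2 sit in a cluster of 75.8 kb (chr8:121054882-121130644) that also holds Fendrr, a noncoding RNA transcribed away from Foxf1, Mthfsd and Foxl1. All 5 genes had both STOP values below both GO values, as 29.6% of all tested genes did. Fendrr had 1 and 2 counts under STOP and 18 and 4 under GO and was too low to be tested. Mthfsd had 16.0 and 19.7 CPM against 25.4 and 27.0 CPM (log2 fold change -0.55, SE 0.20, edgeR adjusted p = 0.136), and Foxl1 had a log2 fold change of -1.65 (SE 0.64, edgeR adjusted p = 0.156). Foxc2 was the 1 gene of the cluster that passed the thresholds. Irf8, the left neighbor of Foxf1 in the gene table, overlapped between the groups (2.03 and 4.40 CPM against 4.96 and 3.95 CPM).

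Foxc1 shares its chromosome region with Foxq1 and Foxf2, and its nearest listed neighbor is Gmds. Gmds was at 10.6 ± 0.768 CPM under STOP and 8.46 ± 0.212 CPM under GO (SD, n = 2 each), with both STOP values above GO (log2 fold change 0.32, SE 0.25, edgeR adjusted p = 0.449). Foxq1 fell from 22.9 ± 5.17 CPM under GO to 6.52 ± 1.27 CPM under STOP (SD, n = 2 each; log2 fold change -1.82, SE 0.27, edgeR adjusted p = 0.0130). Foxf2 fell from 6.68 ± 2.15 to 1.02 ± 0.756 CPM (log2 fold change -2.67, SE 0.55, edgeR adjusted p = 0.0356). Divided by the summed endothelial markers, the STOP and GO libraries overlapped for both genes (ratios of means of 0.951 for Foxq1 and 0.565 for Foxf2). In tumor ECs Foxf2 had at most 5 counts in any library and Foxq1 at most 23. Maml3, the left neighbor of Foxo1 and a coactivator of Notch signaling, was the third neighbor called (log2 fold change -1.45, SE 0.31, edgeR adjusted p = 0.0410). Of 11 neighbors tested in sprout ECs 3 were called, each lower, beside the same 3.03%, and the median was -0.48; 0 of 3 stayed called without STOP replicate 1, without GO replicate 1 or with the replicate block. In tumor ECs edgeR and DESeq2 called 0 of 8 tested neighbors, 0 of them at an unadjusted p under 0.05; the lowest p were those of Afg1l (log2 fold change 1.44, SE 0.94) and Maml3 (-0.62, SE 0.42).

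**Figure D5:**
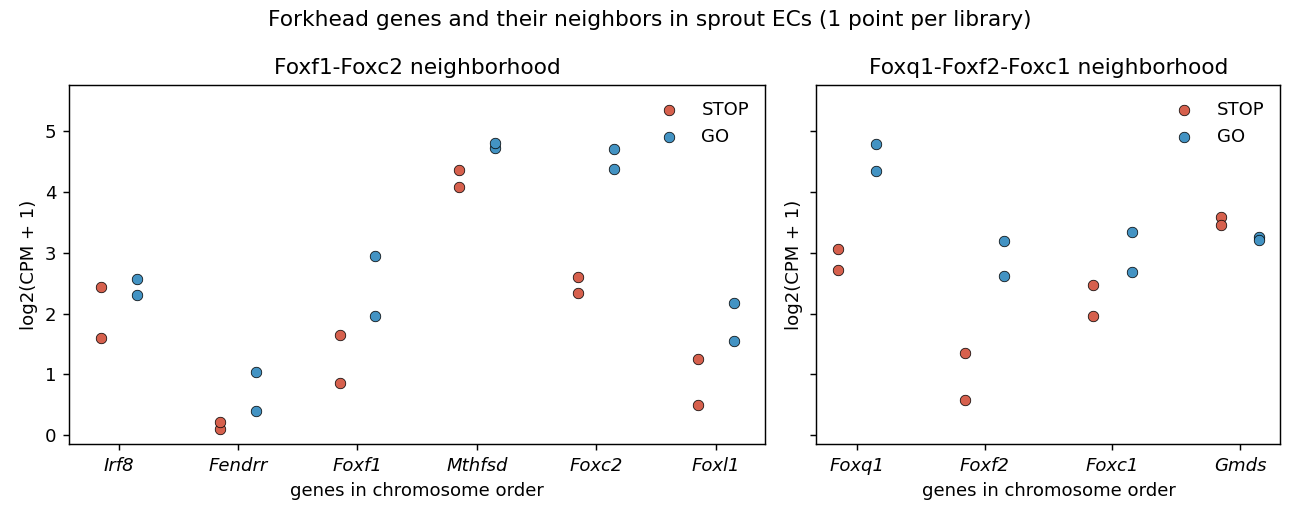
Genes of the Foxf1-Foxc2 and Foxq1-Foxf2-Foxc1 neighborhoods in sprout ECs with Irf8, the left neighbor of Foxf1, and Gmds, the right neighbor of Foxc1, in chromosome order, as log2(CPM + 1) with 1 point per library. The STOP points lie below the GO points for 8 of the 10 genes, a pattern that 29.6% of all tested genes had, overlap them for Irf8 and lie above them for Gmds; Foxc2, Foxq1 and Foxf2 passed the thresholds.

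Of the 38 other forkhead genes, 29 were tested in sprout ECs, and 3 were called, all of them lower, where 3.03% of all tested genes were called lower. The median of the tested genes was -0.04 on the log2 scale (the same with Foxb1 at its bound). They were Foxq1, Foxf2 and Foxb1, which had 0 counts in both STOP libraries and 18 and 16 under GO, at least 5.26-fold lower (floor of 3 counts per library). Without STOP replicate 1, without GO replicate 1 or with the replicate block 0 of the 3 were called, and without STOP replicate 2 the count was 1. It was 6 without a filter on low counts and 10 with the replicate block crossed, a setting added after the data were seen. The unadjusted p fell under 0.05 for 8 genes with a negative and 6 with a positive fold change. Foxo4, a further FOXO gene named here after its values were seen, was higher under STOP with a log2 fold change of 0.62 (SE 0.13, edgeR adjusted p = 0.0322), below the fold threshold. In tumor ECs edgeR and DESeq2 called 0 of 13 tested, with 1 lower and 0 higher at an unadjusted p under 0.05 and a median of 0.29. The lowest p were those of Foxj2 (log2 fold change -1.10, SE 0.44) and Foxp2 (1.97, SE 1.55).

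A list of PI3K and Akt genes with other regulators and partners of FOXO proteins gave 1 call of 35 in sprout ECs. That share was near the 3.88% of all tested genes. Pik3r3, a regulatory subunit of PI3K, fell from 57.6 ± 3.97 to 24.8 ± 2.24 CPM (SD, n = 2 each; log2 fold change -1.22, SE 0.16, edgeR adjusted p = 0.00810), and the list's median was -0.04. That call was lost without STOP replicate 1 and with the replicate block, and 3 genes were called without GO replicate 2. In tumor ECs edgeR and DESeq2 called 0 of 35, with 1 lower and 4 higher at an unadjusted p under 0.05 and a median of -0.14. The lowest p there were those of Inpp5d, which encodes the phosphatase SHIP1 (log2 fold change 1.00, SE 0.32, edgeR adjusted p = 0.909), and of the kinase gene Sgk1 (1.09, SE 0.39, edgeR adjusted p = 0.955).

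Of the FOXO target genes, 31 were tested in sprout ECs and 2 were called, both lower, where 3.03% of all tested genes were called lower. Nos3, the endothelial nitric oxide synthase gene, had a log2 fold change of -1.80 (SE 0.16, edgeR adjusted p = 0.00263), and Kdr, the VEGF receptor 2 gene, of -1.95 (SE 0.20, edgeR adjusted p = 0.00437). ECs express both, and Kdr is also among the 12 endothelial markers. The list had a median of -0.27, with 9 lower and 6 higher at an unadjusted p under 0.05, and 1 call was left with the replicate block. In tumor ECs edgeR and DESeq2 called 0 of 30, with 1 lower and 3 higher at an unadjusted p under 0.05 and a median of 0.05. The lowest p were those of the insulin receptor gene Insr (log2 fold change 0.99, SE 0.38) and Bnip3 (1.67, SE 0.67).

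Of the 6 gene lists, that of FOXC and FOXF target genes had the largest share of calls. In sprout ECs 15 of 25 were called lower and 0 higher, beside 3.03% of all tested genes called lower, and 25 of 25 had a negative fold change. The median was -1.57, beside 0.01 over all tested genes and -1.96 over the 12 endothelial markers, of which 11 were called. Flt4, the VEGF receptor 3 gene (log2 fold change -1.71, SE 0.14), Tal1, a blood and endothelial transcription factor gene (-2.52, SE 0.21), and the Notch target Hey1 (-1.79, SE 0.16) had the lowest p, with edgeR adjusted p-values of 0.00242, 0.00242 and 0.00281. The list shares 5 genes with those markers, and the part of endothelial content in its values was not tested. The calls numbered 8 without GO replicate 1 and 6 with the replicate block. In tumor ECs edgeR and DESeq2 called 0 of 24, with 22 above 0, 2 of them at an unadjusted p under 0.05 and none lower, and a median of 0.45. All 12 endothelial markers, 5 of them on the list, were above 0 too, with a median of 0.36 and 0 called, and their part was not tested. The 2 genes were Flt4 (log2 fold change 1.16, SE 0.44, edgeR adjusted p = 0.957) and Kdr (0.64, SE 0.28, edgeR adjusted p = 1.00). Flt4 is also 1 of the 5 lymphatic markers. These were all above 0 too, with a median of 1.27 and 0 called, and their part was not tested.

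ETS factors, which bind beside forkhead factors on endothelial enhancers, gave 4 calls of 11 in sprout ECs, all lower, with a median of -0.70, where 3.03% of all tested genes were called lower. Fli1 (log2 fold change -2.03, SE 0.16), Erg (-2.35, SE 0.19) and Elk3 (-1.55, SE 0.19) had edgeR adjusted p-values of 0.00242, 0.00242 and 0.00807. Erg is also an endothelial marker here, and 2 calls were left with the replicate block. In tumor ECs edgeR and DESeq2 called 0 of 10, 0 of them at an unadjusted p under 0.05, with a median of 0.26. The lowest p were those of Elf4 (log2 fold change 1.08, SE 0.55) and Elf1 (-0.48, SE 0.33).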

How the data were processed

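The genes and gene lists were chosen with earlier results of these data known. For tumor ECs the authors deposited whole-number counts per gene; the study's methods name STAR and featureCounts, while the submitters' processing notes list Trim Galore 0.5.0, Bowtie2 2.3.4.1, SAMtools 1.9 and Subread 1.6.2. For sprout ECs the authors deposited HTSeq counts (STAR 2.5.0a, HTSeq 0.6.1p1) and, from RSEM 1.2.25, expected counts, TPM and transcript lengths in bases. HTSeq leaves out reads aligned to several places, 42.6% to 49.6% of the reads tallied per library, and lines that name no gene were left out of all totals. Whether counting used strand is not given in the sources used here, so antisense transcripts that overlap a gene cannot be told apart from it.

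After TMM scaling, the counts went into edgeR 4.0.16 (R 4.3.3; filter on a minimum count of 10 by filterByExpr; robust quasi-likelihood test; Benjamini-Hochberg over all genes tested; adjusted p under 0.05 and absolute log2 fold change over 1), in 1 fit per set, and the difference of changes in 1 fit of all 13 libraries. Expected counts were rounded. Exact permutation tests used log2(CPM + 1). With 2 libraries a group no such test can pass 0.05 in sprout ECs. A length was available for 94.8% of tumor genes. The edgeR and DESeq2 fits were tested on simulated data. Alternatives were DESeq2 1.42.0, its size factors, other filters, no fold threshold, a pseudocount of 0.1, the replicate block and leaving out each library. No tumor pair of the same number correlated above 0.1. With 2 libraries a group, all sprout pairs share 1 correlation in size: -0.43 for the same numbers and 0.43 for crossed numbers. It cannot show whether libraries were paired, and the main fits took no pairs.

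Genes were named by a rule: the 6 forkhead genes, Apln, Pecam1 and Eng; from each list the genes past the thresholds with the lowest p (up to 8 forkhead genes, otherwise 3 per direction), or the 2 of lowest p where none passed; and the 3 most similar genes over 9 tumor libraries. Neighbors in the 2 gene clusters, Dppa5a, Epcam, Cdh1 and Foxo4 were added as values.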

Additional observations from a re-analysis of the deposited data

Results flagged for a closer look

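Of the 6 genes tested in the group of 6 WT libraries, 1 had a library far from the others. Foxo3 was at 13.5 CPM in WT replicate 5, and its gap to the next library made up 0.783 of the group's range, above the critical value of 0.625. For values from a normal distribution, chance sets apart about 1 in 20 such groups. The CPM in this group came from 4 to 78 counts and were not tested for that distribution. Without that library the fitted log2 fold change of KO over WT went from -1.22 to -0.06.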

How the results depend on the processing

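In tumor ECs, 0 of 6 genes were called under all 15 alternatives, and the test of the difference between sets likewise gave 0 of 6 under all 15. In sprout ECs the count of called genes was 1 in 9 of 12 alternatives. It was 2 without a filter on low counts, where Foxf1 joined Foxc2 (adjusted p = 0.0492), 0 with the replicate block (Foxc2 adjusted p = 0.0548), and 2 with the replicate block crossed (Foxf1 adjusted p = 0.00316), a setting chosen after seeing the data because libraries of the same number deviated in opposite directions. The opposite directions rest on 1 correlation, which cannot show whether libraries were paired. Over all alternatives the adjusted p of Foxc2 ran from 4.65e-10 to 0.0548 and that of Foxf1 from 0.00316 to 0.577. All sprout directions were kept.

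Some tumor directions, none of them called, turned. With the replicate block Foxo1 was at -0.017 and Foxo3 at 0.70. Without KO replicate 2 Foxf1 was at -0.60 and Foxp1 at -0.020, and without WT replicate 5 Foxf1 was at -0.05. The fitted tumor changes ranged over the alternatives from -0.60 to 0.44 for Foxf1, from -0.02 to 0.53 for Foxo1, from -1.45 to 0.70 for Foxo3, from 0.57 to 2.10 for Foxc1, from 0.06 to 3.40 for Foxc2 and from -0.02 to 0.27 for Foxp1. The difference of mean log2(CPM + 1) turned for Foxf1 to -0.37 without KO replicate 2, to -0.01 without WT replicate 3 and to -0.15 without WT replicate 5, and without WT replicate 5 it was -0.0090 for Foxo1 and 0.027 for Foxo3. Leaving out 1 library at a time gave -0.0090 to 0.69 for Foxo1, -0.61 to 0.027 for Foxo3 and -0.37 to 0.41 for Foxf1. For Foxc1 it was 1.83 without KO replicate 3 (exact permutation p = 0.0357). The cause was not tested.

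Over all genes the sprout calls numbered 441 lower and 124 higher, against 615 and 190 with DESeq2, 632 and 222 without a filter, 41 and 3 with the replicate block and 933 and 302 with it crossed. They were 136 and 12 without STOP replicate 1, 548 and 120 without STOP replicate 2, 135 and 19 without GO replicate 1 and 546 and 341 without GO replicate 2, and the shares of all tested genes given beside the lists rest on the 441 and 124. In tumor ECs DESeq2 called 50 lower and 8 higher against 1 and 0. Foxo3 in tumor ECs rests on 4 to 78 counts and Foxc2 on 0 to 382, which limits both.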
